A study of Homo sapiens with 2 samples.

Results

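AP-1 and immediate early factors were examined in FaDu cells, a pharyngeal squamous carcinoma line, on the array of cells stably carrying the GLUT4 sequence and on the array of cells carrying the control vector. The 10 genes (JUN, JUNB, JUND, FOS, FOSB, FOSL1, FOSL2, ATF3, EGR1 and IER3) were chosen by name, with earlier results of these data known. Every probe set that the platform annotation assigns to 1 of them alone was taken, 24 of 54675 probe sets. By gene, they are 10 of the 19775 genes that the annotation gives. Both cell populations came from lentiviral infection and puromycin selection of the same line, so the controls also carry a vector and the selection. Each group gave 1 array of total RNA, and whether a population was a pool or a single clone is not stated in the labels. SLC2A4, which encodes GLUT4, read 32.6 on the GLUT4 array and 28.3 on the vector array, both below the median signal of 39.3. The arrays thus do not clearly show raised SLC2A4 mRNA. The paper reports by western blot that GLUT4 protein was overexpressed in FaDu cells, and protein is not measured by these arrays. Whether the SLC2A4 probe set lies in the introduced sequence was not determined here. With no second array in either group nothing could be tested, and GLUT4 cannot be told apart from any other difference between these populations.

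AP-1 is a transcription factor made of paired proteins with a basic region and a leucine zipper. JUN proteins can pair with each other or with FOS proteins, while FOS proteins bind DNA only as partners of other factors, and ATF3 pairs with JUN proteins or with itself. Most of these genes are immediate early genes, switched on by growth factors or stress without new protein synthesis, through serum response factor, ETS factors and kinases of the MAP kinase cascades. In squamous epithelia AP-1 acts on differentiation, on proteases and on invasion, and FOSL1 and FOSL2 (also called FRA-1 and FRA-2) are the members whose messages persist longest after a stimulus.

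JUN was the member that differed most, and it was lower on the array labelled GLUT4 on all 4 of its probe sets, by 1.87-fold to 2.86-fold. FOSB was 1.77-fold lower. FOS, JUNB and IER3 were nearly level between the arrays, and EGR1, ATF3 and JUND were lower on their brightest probe sets by less than 1.5-fold. FOSL1 was 1.44-fold higher, and FOSL2 gave different answers on its 5 probe sets. At the brightest probe set of each gene, 2 of the 10 were more than 1.5-fold lower, the threshold of the study's methods, where 1.54% of all 19775 genes were. None of the 10 was more than 1.5-fold higher, where 1.84% of all genes were. Because the 10 were chosen with earlier results of these data known, these shares are description only and were not tested.

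The start regions of 5 of these genes are printed because they hold some of the elements through which immediate early genes are known to be regulated. Members that differed and members that did not can also be set side by side. The sequences are those of RefSeq, GRCh38.p14, which listed 8 of the 10 genes with 9 starts. FOSL1 and IER3 were not matched. Each run is the 250 bases before the start, 5′ to 3′ on the strand of the gene. Bases further away were not searched, so a motif absent from a run can still lie outside it. Capitals mark the motifs searched on both strands, the AP-1 site TGACTCA, its relative TGACATCA, the cyclic AMP response element TGACGTCA with its core TGACGT (which lies within it), the CCAAT box, the TATA box as TATAAA, and the CArG box. JUN is at chr1:58784048-58784297 (minus strand), ATF3 at chr1:212565157-212565406 (plus), FOSB at chr19:45467746-45467995 (plus), FOS at chr14:75278578-75278827 (plus) and EGR1 at chr5:138465229-138465478 (plus).
JUN: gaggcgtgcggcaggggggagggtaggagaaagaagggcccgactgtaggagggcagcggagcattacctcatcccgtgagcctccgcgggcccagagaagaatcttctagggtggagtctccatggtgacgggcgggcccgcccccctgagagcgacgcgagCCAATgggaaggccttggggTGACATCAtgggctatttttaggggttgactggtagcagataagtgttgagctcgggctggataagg
ATF3: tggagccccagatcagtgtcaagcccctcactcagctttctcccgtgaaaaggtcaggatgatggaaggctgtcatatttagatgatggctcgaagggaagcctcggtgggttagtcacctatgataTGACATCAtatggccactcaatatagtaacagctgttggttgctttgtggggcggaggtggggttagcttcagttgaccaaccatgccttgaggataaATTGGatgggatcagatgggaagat
FOSB: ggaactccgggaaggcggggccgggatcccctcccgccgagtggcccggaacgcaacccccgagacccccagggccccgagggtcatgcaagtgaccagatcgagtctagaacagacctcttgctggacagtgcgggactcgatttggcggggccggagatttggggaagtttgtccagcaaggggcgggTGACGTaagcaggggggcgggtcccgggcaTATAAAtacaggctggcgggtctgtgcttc
FOS: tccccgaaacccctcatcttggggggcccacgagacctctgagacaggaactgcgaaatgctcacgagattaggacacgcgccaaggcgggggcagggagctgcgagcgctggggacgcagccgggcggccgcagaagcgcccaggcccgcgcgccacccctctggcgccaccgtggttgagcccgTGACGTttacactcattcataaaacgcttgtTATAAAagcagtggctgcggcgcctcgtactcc
EGR1: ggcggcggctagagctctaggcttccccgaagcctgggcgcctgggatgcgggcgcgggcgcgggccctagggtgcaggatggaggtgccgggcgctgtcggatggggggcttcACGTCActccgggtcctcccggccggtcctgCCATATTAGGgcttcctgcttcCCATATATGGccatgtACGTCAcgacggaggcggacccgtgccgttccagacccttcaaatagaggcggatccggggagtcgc

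The JUN region holds TGACATCA between 67 and 60 bases before the start, a sequence known to bind dimers of JUN and ATF2, and the ATF3 region shown holds the same 8 letters between 123 and 116 bases before it. The region of the other ATF3 start, not printed, does not hold TGACATCA. Of 35116 RefSeq start regions of this length, 2.37% hold that motif. FOSB and FOS each carry TGACGT, the core of the cyclic AMP response element, ending 55 and 59 bases before the start, and TATAAA after it, at 30 and 33 bases. TGACGT also lies in the EGR1 region, on the other strand as ACGTCA, at 136 to 131 and at 67 to 62 bases before the start, and in the regions of FOSL2 and JUND, which are not printed. It occurs in 7.10% and TATAAA in 10.7% of all such regions. EGR1 holds a pair of CArG boxes, the binding sequence of serum response factor, between 105 and 96 and between 83 and 74 bases before the start, and 1.16% of all regions hold one. CCAAT, held by 32.01% of all regions, lies in the JUN region and, on the other strand, in that of ATF3. It also lies in the regions of JUNB and JUND, which are not printed. TATAAA also lies in the JUNB region and in that of the ATF3 start not printed. The JUND region holds TGACGTCA, found in 1.65% of all regions. TGACTCA, the classical AP-1 site, was in none of the 9 regions and in 4.20% of all. These matches describe the letters only. FOSB and FOS share both elements at like distances, while FOSB was lower with GLUT4 and FOS was level.

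JUN encodes the most studied AP-1 subunit, an activator of genes of growth and invasion. Its brightest probe set (201464_x_at) read 3163 on the GLUT4 array and 5899 on the vector array, a log2 difference of -0.90. The probe set with the largest difference (201466_s_at) read 823 and 2351 on the GLUT4 and vector arrays, a log2 difference of -1.51. The other pair read 391 on the GLUT4 array against 777 on the vector array (201465_s_at, -0.99) and 159 against 334 (213281_at, -1.07). All 4 were thus lower with GLUT4, although their signals span more than an order of magnitude. Counted from the most lowered of all 54675 probe sets, they stood at ranks 22, 85, 112 and 153. Of the 2730 genes with at least 4 probe sets, JUN was the 1 gene whose probe sets were all more than 1.5-fold lower. Of the 5508 genes with at least 3 probe sets, 9 were so, JUN among them and also PLAUR, the urokinase receptor and an AP-1 target. The spread of JUN's own probe sets, 0.61 from lowest to highest, exceeded 0.37, the median spread of the 1393 genes with 4 probe sets, so the size of the difference is less settled than its direction. The suffix x_at marks probe sets some of whose probes also match other transcripts, and s_at those whose probes match several transcripts. The 1 JUN probe set with neither suffix, 213281_at, was 2.10-fold lower.

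**Figure D1:**
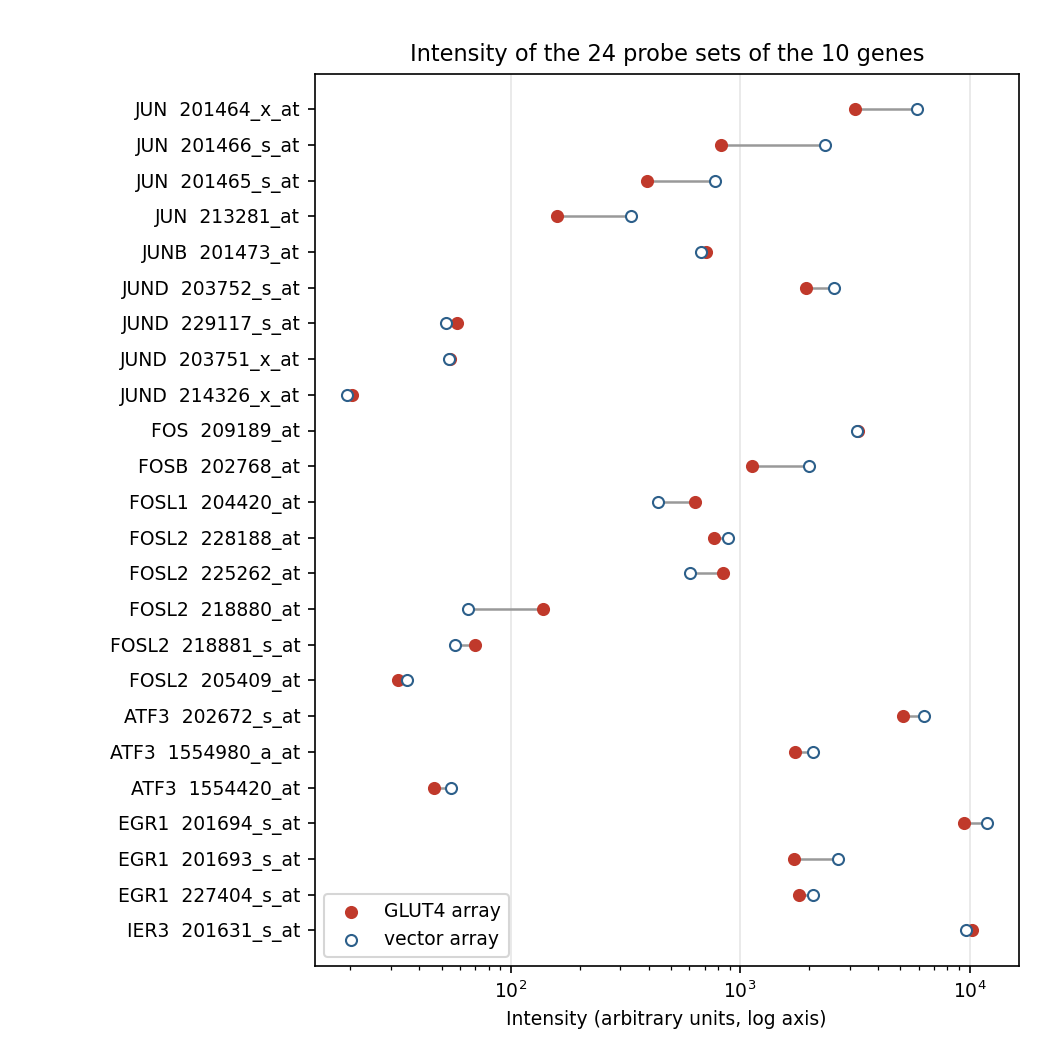
Intensity on the GLUT4 array (filled) and on the vector array (open) for each of the 24 probe sets, on a log axis, without error bars because each group had 1 array. The 4 JUN probe sets and the FOSB probe set have the GLUT4 value clearly left of the vector value, and FOSL2 218880_at has it right, at 138 against 65.0.

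JUNB, which can restrain JUN in some settings and activates in others, did not follow JUN. Its probe set (201473_at) read 707 on the GLUT4 array and 676 on the vector array, a log2 difference of 0.06. The log2 difference of JUN minus that of JUNB was -0.96. Between probe sets of the same gene, the SD of the gap was 0.29 over all 10523 pairs. It was 0.16 when both were at least as bright as the dimmest of these genes (1386 pairs). The probe sets of JUN alone spread over 0.61. Both SDs gauge spread between probe sets only, not differences between cultures. JUND, the subunit that is more constantly present in resting cells, read 1937 on the GLUT4 array and 2554 on the vector array on its brightest probe set (203752_s_at), 1.32-fold lower. Its remaining probe sets were dim, with readings of 20.3 to 58.4 on the GLUT4 array and 19.3 to 54.1 on the vector array, and log2 differences of 0.01 to 0.16. The brightest JUND probe set and the dim ones thus fell on opposite sides of 0, and the mean over all 4 was -0.04. Of the 9 probe sets of the JUN family, the 4 of JUN were more than 1.5-fold lower, and none was more than 1.5-fold higher.

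The FOS family split. FOS, which heterodimerizes with JUN proteins, read 3274 on the GLUT4 array and 3226 on the vector array (209189_at), a log2 difference of 0.02. FOSB, a close relative induced by the same stimuli, read 1124 on the GLUT4 array and 1994 on the vector array (202768_at), a log2 difference of -0.83. The log2 difference of FOSB minus that of FOS was -0.85, and each is represented by 1 probe set, so neither has a further probe set to set it against. With genes taken at their brightest probe sets, JUN and FOSB stood at ranks 81 and 106 from the most lowered of 19775 genes.

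FOSL1, which lacks the strong activation domain of FOS and is known for its part in the invasion of carcinoma cells, was on the other side. It read 634 on the GLUT4 array and 440 on the vector array (204420_at), a log2 difference of 0.53 and rank 460 from the most raised gene. Its difference lay 1.43 above that of JUN and 1.36 above that of FOSB. FOSL1 stayed within 1.5-fold, and no second probe set names it alone.

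FOSL2, the other FOS-related protein without that domain, had 5 probe sets that did not agree. The brightest (228188_at) read 771 on the GLUT4 array and 882 on the vector array, a log2 difference of -0.19. The next (225262_at), nearly as bright, read 840 and 603 on the GLUT4 and vector arrays, a difference of 0.48. A dimmer one (218880_at) read 138 on the GLUT4 array and 65.0 on the vector array, 2.12-fold higher, and was the only 1 of the 24 probe sets more than 1.5-fold higher. The remaining ones read 69.7 against 57.4 (218881_s_at) and 32.2 against 35.2 (205409_at) on the GLUT4 and vector arrays. These 5 differences spanned 1.28, while the median span of the 706 genes with 5 probe sets was 0.45, and 3.12% of those genes spanned as much as FOSL2 or more. Which parts of the transcript each probe set reads was not determined here, so a direction for FOSL2 as a whole is not given. Averaged over its probe sets, the difference was 0.30.

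**Figure D2:**
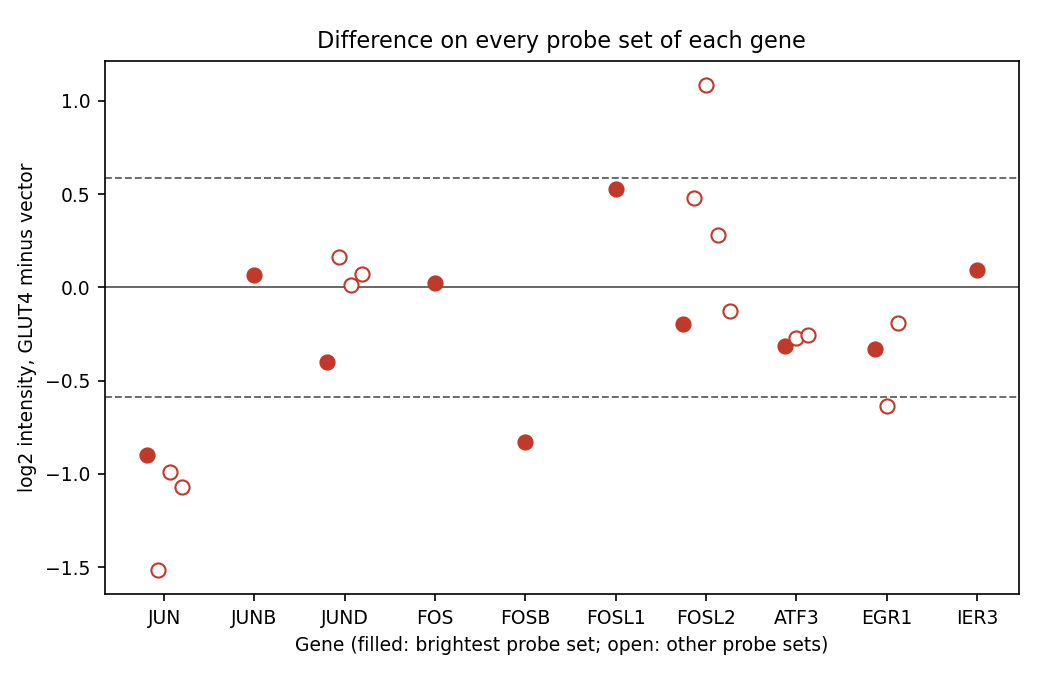
Log2 difference (GLUT4 minus vector) on every probe set of each gene, with the brightest probe set filled and dashed lines at 1.5-fold. JUN lies below the lower line on all 4 probe sets, FOSB on its 1, and FOSL2 spreads from -0.19 to 1.09.

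ATF3, a stress-induced partner of JUN that often represses, was lower by a similar amount on each of its probe sets. They read 5116 against 6362 (202672_s_at), 1728 against 2082 (1554980_a_at) and 46.1 against 54.9 (1554420_at) on the GLUT4 and vector arrays, with log2 differences of -0.31, -0.27 and -0.25. All 3 stayed within 1.5-fold, and they differed from each other by 0.06 although the dimmest was near the median signal of 39.3. Of the 5508 genes with at least 3 probe sets, 15.1% had every probe set below 0, as JUN, ATF3 and EGR1 had.

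EGR1, a zinc finger factor induced within minutes of a stimulus and not part of AP-1, was among the brightest genes on both arrays. Its brightest probe set (201694_s_at) read 9437 on the GLUT4 array and 11860 on the vector array, a log2 difference of -0.33. A dimmer one (201693_s_at) read 1718 and 2674 on the GLUT4 and vector arrays, 1.56-fold lower, and the third (227404_s_at) read 1814 and 2073, 1.14-fold lower. EGR1 was therefore lower on all 3, past 1.5-fold on 1 of them. IER3, an immediate early gene that modulates cell survival, read 10250.5 on the GLUT4 array and 9616 on the vector array (201631_s_at), a log2 difference of 0.09.

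Over all 24 probe sets, 6 were more than 1.5-fold lower (4 of JUN, 1 of FOSB and 1 of EGR1), 1 of FOSL2 was more than 1.5-fold higher, and the other 17 did not pass this threshold. On the whole array the shares were 1.22% lower and 2.04% higher. Probe sets of 1 gene read the same RNA, so these 6 stand for 3 genes. The 10 genes are bright, each at a signal above at least 86.3% of all probe sets, and the share past the threshold depends on signal. Among the 12939 genes above the median signal, 1.99% were more than 1.5-fold lower and 2.38% more than 1.5-fold higher. Among the 4765 genes at least as bright as the dimmest of them, 1.15% were more than 1.5-fold lower and 1.03% more than 1.5-fold higher. The median of the 10 log2 differences was -0.25, beside 0.02 for those 4765 genes and -0.02 for all genes. It rested on the choice of the brightest probe set, since with the mean or the median over the probe sets of each gene it came to -0.0084 or 0.032.

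**Figure D3:**
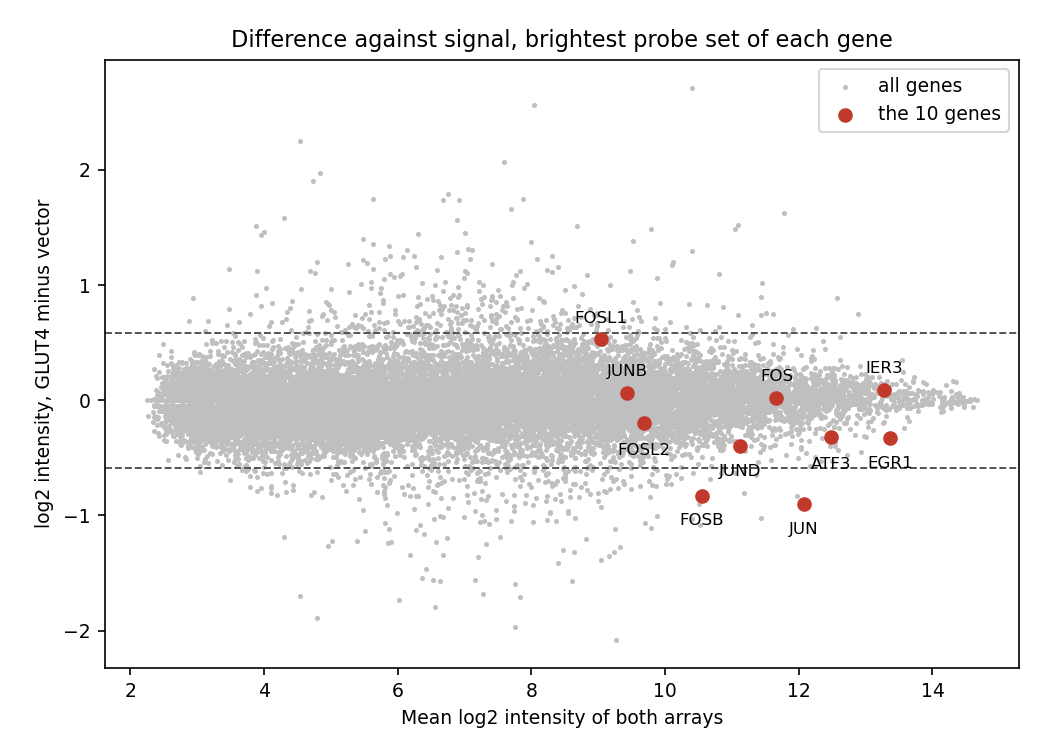
Log2 difference (GLUT4 minus vector) plotted against mean log2 intensity, 1 point per gene at its brightest probe set, for all 19775 genes (grey) and the 10 genes (red), with dashed lines at 1.5-fold. JUN (-0.90) and FOSB (-0.83) lie below the lower line in a range of signal where few grey points do, and FOSL1 lies just inside the upper line at 0.53.

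Other factors with basic leucine zippers, which can pair with JUN or FOS proteins or compete for their sites, were mostly within 1.5-fold. Of all 19775 genes, 1.54% were more than 1.5-fold lower and 1.84% more than 1.5-fold higher, to be set beside this list and those that follow. These lists were chosen with earlier results of these data known. Of 25 factors listed, 23 were measured, with a median of -0.08, 1 more than 1.5-fold lower and none more than 1.5-fold higher. The 1 was DDIT3, the stress factor CHOP, which read 551 on the GLUT4 array and 941 on the vector array, a log2 difference of -0.77. ATF5 (0.02), the small MAF protein MAFG (-0.04) and the antioxidant regulator NFE2L2 (-0.08) were among those that differed least on their brightest probe sets.

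Further immediate early genes lay on both sides of 0. Of 31 further immediate early genes, 29 were measured, with a median log2 difference of 0.03. More than 1.5-fold higher were 3, CSRNP1 at 1.09 (665 on the GLUT4 array and 313 on the vector array), the MAP kinase phosphatase DUSP2 at 0.99 (563 and 283) and KLF10, a TGF-beta-inducible repressor, at 0.62 (4793 and 3114). The 1 more than 1.5-fold lower was TRIB1, a pseudokinase, at -0.63 (1708 on the GLUT4 array and 2639 on the vector array), while its other probe sets brought its mean to -0.30. CCN1, a matricellular protein, the mRNA decay factor ZFP36 and the survival factor MCL1 were level on their brightest probe sets, at -0.01, -0.02 and 0.03. The 6 probe sets of MCL1 ranged from 0.03 to 0.33. JUN and FOSB were lower than each of these 29 genes in their differences, and CSRNP1 and DUSP2 lay at the opposite end.

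The kinases and serum response cofactors that act upstream were within 1.5-fold in all 18 cases measured of 22 listed, with a median of -0.11 and a range of -0.34 to 0.19. The JUN kinases MAPK8 and MAPK9 were at 0.04 and -0.02, and MAP2K4, which activates them, at 0.05. These are mRNA values, and kinase activity was not measured. Of 15 feedback inhibitors of MAP kinase signalling, 14 were measured and 1 was more than 1.5-fold higher, SPRY2 at 0.82 (554 on the GLUT4 array and 314 on the vector array). DUSP7 and SPRY4 were level on their brightest probe sets, at 0.00 and 0.02, and DUSP16 was at -0.05. The second probe set of DUSP7 was at 0.40, and the 4 of DUSP16 ranged from -0.06 to 0.30. Of 9 factors that control the decay of such short-lived mRNAs, 8 were measured and all 8 were within 1.5-fold on their brightest probe sets. ELAVL1, which stabilizes AU-rich mRNAs, was at -0.0023 and ZFP36L2, which destabilizes them, at -0.04. But the 4 probe sets of ELAVL1 ranged from -0.99 to 0.12, and the 4 of ZFP36L2 from -0.04 to 0.32.

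Genes known as AP-1 targets went both ways. Of 41 listed, 36 were measured, of which 5 were more than 1.5-fold lower, 4 more than 1.5-fold higher and 27 within, with a median of -0.03. Of all genes, 1.54% were more than 1.5-fold lower and 1.84% more than 1.5-fold higher. The list was chosen with earlier results of these data known, and its share was not tested. On the lower side were the calcium-binding protein S100A9 at -1.11 (605 on the GLUT4 array and 1307 on the vector array), the collagen receptor subunit ITGA2 at -1.03 (952 and 1942), and the protease urokinase PLAU (663 and 1327), whose 2 probe sets averaged -1.04. Its receptor PLAUR was at -0.87 (376 on the GLUT4 array and 688 on the vector array), and was lower on all 3 of its probe sets, and the gelatinase MMP9 was at -0.62 (-0.51 with 32 added to each intensity, within 1.5-fold). On the higher side were PTGS2, the inducible cyclooxygenase, at 1.49 (1483 and 529 on the GLUT4 and vector arrays), VIM, an intermediate filament protein, at 1.10 (2618 and 1222), the chemokine CXCL8 at 0.89 (8309 and 4488) and the cytokine IL6 at 0.75 (3776 and 2239). The second probe set of VIM was at -0.15. KRT16, a keratin, ITGB4, an integrin, and CD44, the hyaluronan receptor, were level on their brightest probe sets, at -0.01, 0.02 and -0.02. However, the 5 probe sets of ITGB4 ranged from -0.08 to 0.31 and the 13 of CD44 from -0.18 to 0.56. PTGS2, CXCL8 and IL6 are also known as targets of NF-kappaB.

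**Figure D4:**
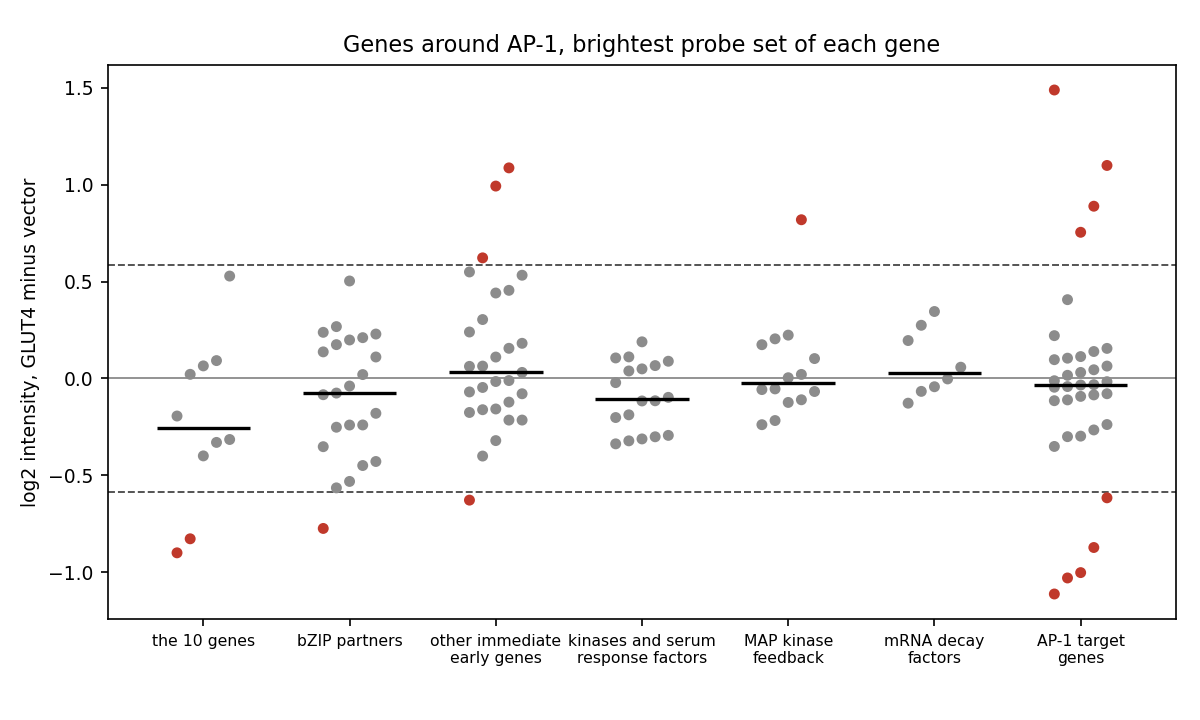
Log2 difference (GLUT4 minus vector), 1 point per gene at its brightest probe set, for the 10 genes and 6 related lists. Bars mark medians, red points are past 1.5-fold and dashed lines mark 1.5-fold. The median of the 10 genes is -0.25 and those of the related lists run from -0.11 to 0.03.

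Control probe sets at the 3′ and 5′ ends of a transcript, whose log2 ratio grows with RNA degradation, gave 0.16 on the GLUT4 array and 0.13 on the vector array for GAPDH, and 0.38 and 0.31 for ACTB. Of 10 squamous epithelial markers, 7 were measured and all were above the median signal, with summed intensities of 38391 on the GLUT4 array and 37255 on the vector array. Of these 7, KRT14, a basal keratin, was more than 1.5-fold higher at 1.02 (3985 on the GLUT4 array and 1963 on the vector array), EPCAM, an epithelial adhesion molecule, was more than 1.5-fold lower at -0.83 (3021 and 5361), and 5 were within 1.5-fold. The summed intensity of 10 fibroblast and endothelial markers was 1578 on the GLUT4 array and 1042 on the vector array, with DCN, a matrix proteoglycan, at 1050 and 482. Of these 10, DCN and LUM, a related proteoglycan, were more than 1.5-fold higher, at 1.12 and 1.05, PECAM1, an endothelial adhesion molecule, was lower at -1.55 (48.2 on the GLUT4 array and 141 on the vector array), and 7 were within 1.5-fold. LUM read only 79.9 on the GLUT4 array and 38.5 on the vector array, and its second probe set was at 0.32. The 7 probe sets of DCN ranged from 0.20 to 1.29 and the 5 of PECAM1 from -1.55 to -0.11. The 9 measured of 10 blood cell markers were all within 1.5-fold and summed to 305 and 320 on the GLUT4 and vector arrays, with PTPRC, the pan-leukocyte marker, at 8.14 and 8.30. No marker was listed at 0, and the part of other cells or of RNA quality in the differences of JUN and FOSB was not tested.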

How the data were processed

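Total RNA of FaDu cells labelled as expressing GLUT4 or the control vector, 1 array each, was labelled by the authors with a kit for labelling from the 3′ end and hybridized to Affymetrix Human Genome U133 Plus arrays. The deposited values are intensities on a linear scale. The authors' methods name GeneSpring normalization to log2 values and the submitters' processing notes name MAS5, while the way they were combined was not found in the labels or methods. The intensities had medians of 39.1 on the GLUT4 array and 39.7 on the vector array and the same maximum, so they were already normalized between arrays, which hides any change of total RNA.

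Each difference is log2 of the GLUT4 intensity minus log2 of the vector intensity, after a floor of 1. Of 54675 probe sets, 41097 name 1 gene, 1801 name several and were not used for genes, and 11777 are unnamed here. A gene was represented by the probe set with the highest mean log2 intensity of both arrays. Symbols were updated through gene identifiers to NCBI RefSeq names of GRCh38.p14, the source of the start regions. The fold threshold of 1.5 is that of the study's methods. With 1 array per group no p-value was computed. The number of arrays limits the precision, and technical error could be gauged only from probe sets that share a gene (SD 0.20 for each of them, over 10523 pairs).

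The 10 genes and the 9 further lists were chosen with earlier results of these data known. Named genes were all members, and per further list up to 5 past the threshold in each direction and the 3 with the smallest differences among those above the median signal (some marker genes so chosen are not given). PTPRC was chosen after its value was seen. List genes not counted as measured were not analysed here. The procedure was tested on simulated data. Alternatives were equal array medians, quantile normalization, loess (fraction 0.3), offsets of 16 and 32, leaving out x_at and s_at probe sets, the mean or median over probe sets, and a filter at the median signal. Scripts ran in Python 3.11.15 with pandas 2.3.3, numpy 2.4.6, statsmodels 0.14.6 and matplotlib 3.10.9.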

Additional observations from a re-analysis of the deposited data

How the results depend on the processing

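Under each of the 9 alternatives, 2 of the genes measured were more than 1.5-fold lower and none was more than 1.5-fold higher, although leaving out x_at and s_at probe sets left 7 of the 10 genes. Some alternatives could not change these counts. The brightest probe sets of all 10 genes lie above the median signal, so that filter left every gene value as it was. FOSB has 1 probe set without those suffixes, so the mean, the median and the removal of suffixes left FOSB as it was. The median over the genes of -0.25 stayed between -0.27 and -0.19 under 7 alternatives. It came to -0.0084 with the mean over the probe sets of each gene and to 0.032 with their median. The middle genes were then JUND and FOS, in place of ATF3 and FOSL2. Why the probe sets of JUND and of FOSL2 differ was not tested. Under the mean over probe sets JUN was at -1.12, JUND at -0.04 and FOSL2 at 0.30, and under the median JUND was at 0.04 and FOSL2 at 0.28. Without x_at and s_at probe sets, 2 of 11 probe sets were more than 1.5-fold lower, in place of 6 of 24, by construction. All other values of single genes moved by less than 0.20, the SD estimated for one probe set. No paired analysis was possible because each group has 1 array and the result comes from no test. The precision is limited by 1 array per group, and an SD from probe sets of the same gene does not cover differences between cultures.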
